A study of Mus musculus with 6 samples.

Results

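Foxp3, the transcription factor that defines regulatory T cells (Treg), was followed together with Flicr, a long noncoding RNA transcribed across the start of Foxp3, and 8 genes of its transcription factor partners. The partners were Foxp1, the Ikaros family genes Ikzf1 (Ikaros), Ikzf2 (Helios), Ikzf3 (Aiolos) and Ikzf4 (Eos), the Runx factors Runx1 and Runx3, and Cbfb, which encodes the common subunit that binds Runx proteins. The 10 genes were taken by symbol from the 29199 rows of the deposited table, each symbol matched 1 row, and all 10 passed the filter on low counts that left 18321 genes for testing.

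Total RNA was sequenced from Treg sorted out of the spleen of mice 3 weeks after a bone marrow graft. Recipients were irradiated B6 mice (C57BL/6J or CD45.1+ B6) that had been given equal parts of B6 and semi-allogeneic B6D2F1 bone marrow, wild-type (WT) Treg and naive conventional CD4+ T cells (Tconv). The Tconv were WT in 3 libraries, here the WT Tconv group, and in the other 3, the KO Tconv group, they came from Hp1a-/- mice, in which CMV-cre had deleted a floxed Hp1a allele in all tissues. That line had a mixed background of 129/Sv and C57BL/6. The Treg that were sequenced were WT in both groups. Donors of Tconv were littermates aged 6 to 12 weeks. HP1α is a heterochromatin protein encoded by Cbx5. The Treg in both groups came from B6 Foxp3-Thy1.1 mice and were expanded with 500 IU/mL IL-2, 0.1 ng/mL TGF-β and beads coated with anti-CD3 and anti-CD28 for 3 days, then kept for 5 to 7 days without the beads. At the end they were sorted as CD4+ Thy1.1+ cells that lacked CD45.1 and the H-2Kd marker of B6D2F1 cells. The Thy1.1 marker is driven by the Foxp3 locus, so the gate itself selected on it and the Foxp3 values describe cells that passed it. The labels do not say that replicates came from separate mice, so p-values measure the spread between these samples, which may be technical.

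Foxp3 binds DNA through a forkhead domain and works in large complexes with other factors. Foxp1 is a forkhead relative that shares much of its DNA-binding preference, Helios and Eos are zinc-finger proteins abundant in Treg, and the Runx proteins with Cbfβ bind both the Foxp3 protein and regulatory DNA of the Foxp3 gene. Flicr is known as a cis-acting RNA that lowers Foxp3 expression in a part of the Treg pool. The comparison asks whether the level of Foxp3 or of these partners in WT Treg depended on the genotype of the Tconv they were meant to suppress.

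Depth was high, with 87421755 to 119078882 counts and 22573 to 24626 detected genes per library. All 9 markers listed for T cells and Treg were found, namely Cd3d, Cd3e, Cd3g, Cd4, Foxp3, Il2ra, Ctla4, Ikzf2 and Thy1. Their summed level was 5202 to 5999 CPM (the count scaled to a library total of 1000000) in the WT Tconv group. In the KO Tconv group it was 5280 to 5559 CPM. Foxp3 and Ikzf2 are members and Thy1 relates to the sort gate, so the sum is no independent check of cell identity. Replicate 3 of the WT Tconv group stood apart in erythroid markers, of which 8 of 9 had counts and Ahsp was at 0 throughout, with 6594 CPM against 412 to 765 CPM in the other 5 libraries. The same library held 1944 CPM of 11 neutrophil markers, against 44.2 to 243 CPM elsewhere, and 181 CPM of 9 macrophage and monocyte markers, against 13.2 to 49.0 CPM elsewhere. Markers of B cells summed to 27.9 to 40.9 CPM and 7 plasma cell markers, among them Igkc, Ighm and Xbp1, to 754.9 to 844.2 CPM over all libraries, with the groups overlapping. Replicate 2 of the KO Tconv group stood apart in another way, since long genes were relatively low in it. This was measured by Spearman's rho between exonic length and the deviation of the gene in a library from its mean. Across genes with a mean of at least 10 CPM, rho was -0.24 in that library, against -0.011 to 0.18 in the other libraries. Across 18189 tested genes, GC-rich genes were relatively high in all 3 libraries of the KO Tconv group (rho of 0.0982 to 0.146) and not in the WT Tconv group (rho of -0.231 to -0.0129). Among genes with a mean of at least 10 CPM, the range that holds all members, this was more marked, with rho of 0.141 to 0.31 in the KO Tconv group and -0.444 to -0.0666 in the WT Tconv group. Genes are not independent replicates, and these values are descriptions. In bulk RNA, fewer cells that express a gene and less RNA per cell cannot be told apart.

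Foxp3 (ENSMUSG00000039521) lies at chrX:7439883-7461484 on the plus strand of GRCm39, and Flicr (ENSMUSG00000039545) at chrX:7439839-7447266 on the same strand. The annotated exons of the pair share 853 bases, which is 18.6% of the exonic length of Foxp3 and 23.8% of that of Flicr, with a longest identical run of 477 bases. Exon 1 of the Foxp3 transcript, at chrX:7445908-7446085, and the 250 bases before it lie wholly inside exon 3 of Flicr, at chrX:7444147-7447266. The window of 250 bases is shown because the proximal promoter of one gene is here transcribed exonic sequence of the other. It stands at chrX:7445658-7445907, plus strand, 5′ to 3′.

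Foxp3 promoter inside Flicr exon 3: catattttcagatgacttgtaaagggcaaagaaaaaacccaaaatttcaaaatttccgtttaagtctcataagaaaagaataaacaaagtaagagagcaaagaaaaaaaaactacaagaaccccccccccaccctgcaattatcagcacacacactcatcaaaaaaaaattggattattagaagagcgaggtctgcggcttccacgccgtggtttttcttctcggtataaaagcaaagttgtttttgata

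Reads from the shared bases had to be divided between the pair by the estimation model, so each value depends on that division and the sum of both was also tested. Foxp3 exons further overlap genes on the opposite strand, by 590 bases with Ccdc22, 373 bases with Gm36995 and 266 bases with Ppp1r3f. Among the partners, Foxp1 exons share 300 bases with Gm20696 on the same strand. The library kit kept strand. Whether the counting used it was not given in the sources used here. The RUNX motif TGTGGT, the forkhead motif TGTTTAC and the Ikaros motif TGGGAA were searched on both strands of the 250 bases before the canonical transcript of each of the 10 genes in the annotation. Other transcripts were not searched, and since several genes have transcripts that start further upstream, the windows of Foxp3, Foxp1, Ikzf1, Ikzf2, Ikzf4 and Runx3 lie inside the gene bounds, and that of Ikzf3 lies mostly inside them. The sole match was one RUNX motif on the minus strand of the Runx1 window, at -233 to -228. Of 21770 such windows, each before the canonical transcript of a protein-coding gene, 13.0%, 2.72% and 22.7% held the RUNX, forkhead and Ikaros motif.

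Coding sequences are also alike within the families. A window of 90 coding bases is shown for a pair of Ikaros family genes and for the Runx genes because it is a stretch of high likeness within the family. Capitals mark the bases that differ from the first sequence of the pair, and lower-case bases are identical to it. The Ikaros family windows come from the exon that encodes the C-terminal zinc fingers, through which these proteins pair with each other. They lie at chr11:11719417-11719506 (plus strand) for Ikzf1 and chr1:69577996-69578085 (minus strand) for Ikzf2.

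Ikzf1: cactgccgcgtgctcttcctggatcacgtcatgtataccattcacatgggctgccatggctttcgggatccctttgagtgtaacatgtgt
Ikzf2: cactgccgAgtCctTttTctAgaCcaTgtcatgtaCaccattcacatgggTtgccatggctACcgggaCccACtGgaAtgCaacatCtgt

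Over these bases Ikzf2 matched Ikzf1 at 72 of 90 positions (80.0%). The Runx windows come from the Runt domain, which binds DNA and Cbfβ, at chr16:92492372-92492461 (minus strand) for Runx1 and chr4:134880278-134880367 (plus strand) for Runx3.

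Runx1: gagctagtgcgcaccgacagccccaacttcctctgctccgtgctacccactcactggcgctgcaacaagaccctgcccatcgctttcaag
Runx3: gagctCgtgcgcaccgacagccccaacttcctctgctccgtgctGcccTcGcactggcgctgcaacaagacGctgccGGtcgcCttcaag

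Runx3 matched Runx1 at 82 of 90 positions (91.1%). The longest identical runs between coding sequences within a family were 38 bases for Runx1 and Runx3, 26 bases for Ikzf1 and Ikzf3, and 24 bases for Ikzf1 and Ikzf4. The Ikaros family pair shown, Ikzf1 and Ikzf2, shared a coding run of 17 bases, while Foxp1 and Foxp3 shared none above 11 bases. All of these runs are shorter than the reads that the study sequenced. How reads were assigned within the families was not tested. Across whole exons, runs reached 71 bases between Ikzf4 and Runx3 and 47 bases between Foxp1 and Runx3, where the coding runs were 11 and 12 bases.

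Levels can be compared between genes once divided by length. Helios was the most abundant of the 10, with Ikzf2 at 132 CPM per kilobase of exon ± 14.1 (SD over 6 libraries). Foxp3 followed at 46.0 ± 7.23 CPM per kilobase and Cbfb at 43.2 ± 3.17 CPM per kilobase, and the ranges of those genes overlapped. Below them came Ikzf1 at 28.2, Ikzf3 at 18.3 and Ikzf4 at 12.4 CPM per kilobase, each with a range apart from its neighbours in the order. Runx1 at 8.71, Runx3 at 7.24, Flicr at 5.34 and Foxp1 at 5.24 CPM per kilobase closed the order, and each of these overlapped with the next. The order depends on the length used. With the longest transcript in place of all exons, Cbfb stood at 56.0 and Foxp3 at 54.9, and Foxp1 at 10.4 moved above Runx3 at 9.32 CPM per kilobase. Within the Ikaros family, Helios made up 69.9% ± 1.72 (SD, n = 3) of the summed CPM per kilobase in the WT Tconv group and 68.2% ± 4.09 (SD, n = 3) in the KO Tconv group. Ikaros itself made up 14.3% ± 1.17 and 15.3% ± 1.93, Aiolos 9.06% ± 0.537 and 10.2% ± 1.94, and Eos 6.68% ± 0.420 and 6.31% ± 0.529.

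**Figure D1:**
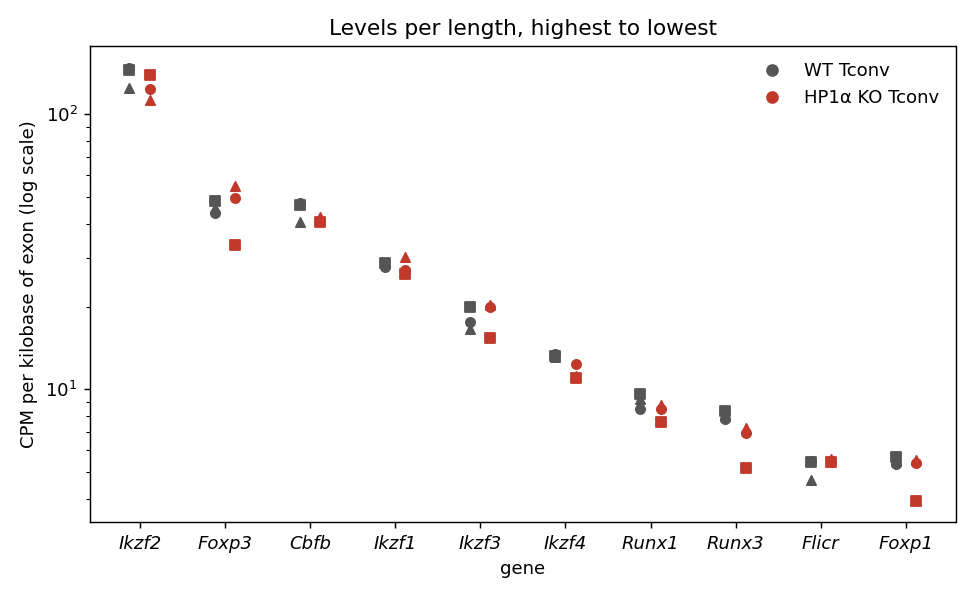
Level of each gene in CPM per kilobase of exon on a log scale, 1 point per library, with marker shapes for replicates 1 to 3 (circle, square, triangle), grey for the WT Tconv group and red for the KO Tconv group. Ikzf2 lies between 112 and 148 CPM per kilobase, above all other members, and Foxp3 overlaps with Cbfb.

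Across the whole table, no gene of 18321 reached an adjusted p-value under 0.05 by the quasi-likelihood test of edgeR with Benjamini-Hochberg adjustment (0.0% called), while 2656 (14.5%) had an unadjusted p under 0.05. DESeq2, with its own filter, called 526 of the 12097 genes it gave an adjusted p (4.35%). Among the 10 members, edgeR and DESeq2 called 0 at the adjusted threshold, and 2 had an unadjusted p under 0.05 in edgeR. Both of these, Ikzf4 and Runx3, were lower in the KO Tconv group, against 7.52% of all genes tested that were lower at this level and 6.98% that were higher. The same 2 were the only members whose groups did not overlap, which was the case for 23.0% of all genes. The median log2 fold change was -0.129 over the members and -0.008 over all genes tested, and 7 of 10 members had a value below 0, against 51.5% of all genes. Without replicate 2 of the KO Tconv group all members but Ikzf2 moved up, Foxp1 from -0.156 to -0.015 and Runx3 from -0.321 to -0.184. Ikzf2 then went from -0.157 to -0.242. With an offset for GC content, chosen after seeing the data, Ikzf2 was at -0.046 and Cbfb at -0.030, while Ikzf4 (-0.195) and Runx3 (-0.333) moved little. The median absolute log2 fold change of the members, 0.129, was under that of all genes, 0.170.

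Foxp3 itself was measured at 200.1, 222 and 209 CPM in replicates 1, 2 and 3 of the WT Tconv group and at 228, 154 and 252 CPM in replicates 1, 2 and 3 of the KO Tconv group (TMM-scaled CPM, as for all values by library that follow). The WT Tconv libraries were close together and sat inside the range of the other group, of which replicate 2 was the lowest of all 6 libraries and replicates 1 and 3 the highest. The means were 210.4 ± 10.9 and 211 ± 51.1 CPM (SD, n = 3), the log2 fold change was 0.005 (SE 0.178, 95% interval -0.425 to 0.435) and the edgeR adjusted p-value was 0.994. The interval allows a level between 0.745 and 1.35 times that in the WT Tconv group. On the log2 scale the SD was 0.377 with KO Tconv and 0.0746 with WT Tconv, and 96.0% of the 8848 genes with a mean of at least 10 CPM had a smaller SD with KO Tconv than Foxp3 did. Without replicate 2 of the KO Tconv group the log2 fold change was 0.189 (unadjusted p 0.0293, edgeR adjusted p-value 0.254), while leaving out replicate 3 gave -0.14. Over all alternatives the adjusted p ran from 0.108 to 0.9996.

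Flicr was measured at 19.7, 19.4 and 16.7 CPM with WT Tconv and at 19.5, 19.45 and 19.9 CPM with KO Tconv. A single library was low, replicate 3 with WT Tconv, the one with high erythroid and neutrophil markers, and the other 5 lay within a narrow band that held both groups. The log2 fold change was 0.077 (SE 0.0900, 95% interval -0.129 to 0.284, edgeR adjusted p-value 0.726), or 0.006 when that replicate 3 was left out and 0.134 with an offset for the GC content of genes, an alternative chosen after seeing the data. Replicate 2 with KO Tconv, lowest for Foxp3, was thus at the common level for Flicr. The ratio of Flicr to Foxp3 counts was 0.0983, 0.0877 and 0.0799 with WT Tconv and 0.0856, 0.127 and 0.0793 with KO Tconv, and the highest value belonged to that replicate 2. The mean log2 ratio differed by 0.106 (two-sided exact permutation p 0.9, adjusted over 4 ratios 0.9), in a design whose smallest possible p is 0.1. Without that replicate the difference was -0.101.

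With the counts of Foxp3 and Flicr added, which removes the division of shared reads, the pair stood at 219.8, 241 and 226 CPM with WT Tconv and at 247, 173 and 272 CPM with KO Tconv. The order of the libraries was that of Foxp3, which supplied most of the counts. For the sum, the log2 fold change was 0.011 (SE 0.161, 95% interval -0.372 to 0.394, edgeR adjusted p-value 0.982). Without replicate 2 with KO Tconv it was 0.181 (unadjusted p 0.0310, adjusted 0.258 by edgeR), while leaving out replicate 3 of that group gave -0.122.

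**Figure D2:**
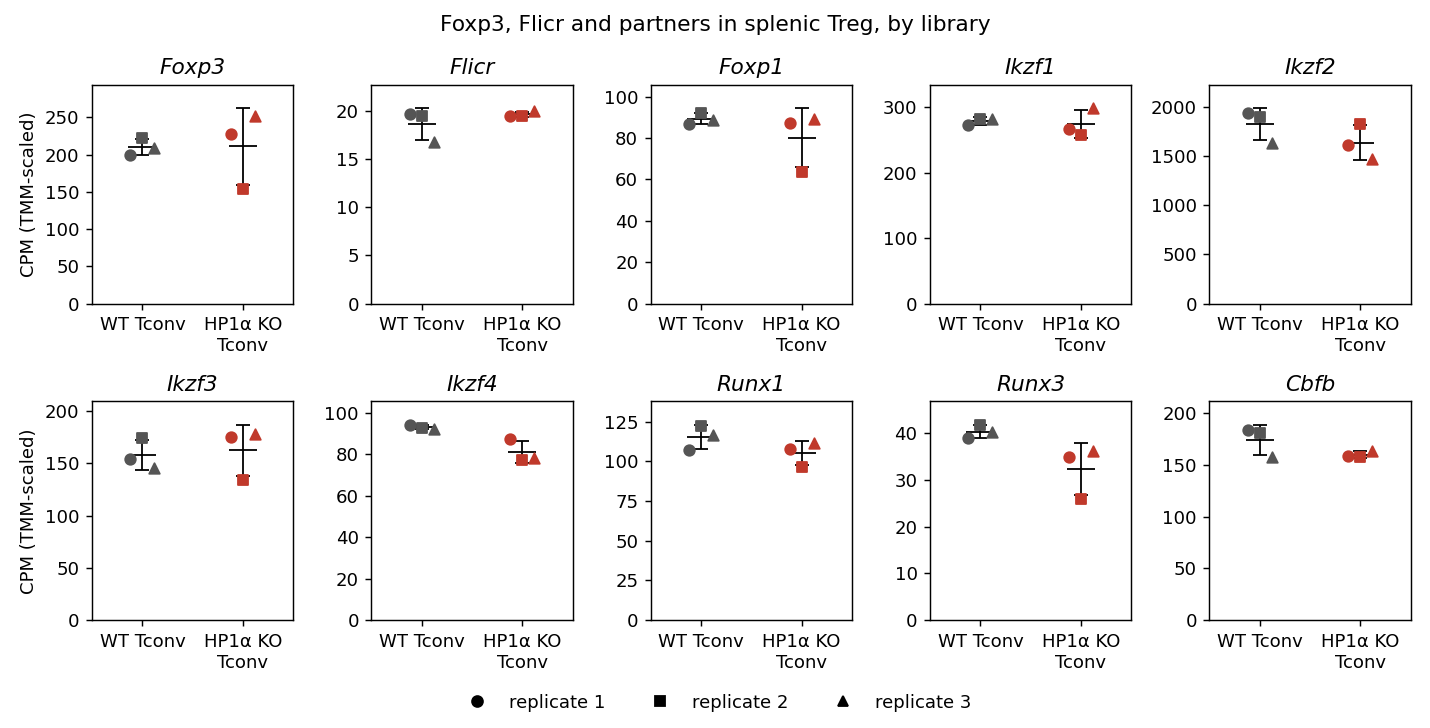
TMM-scaled CPM of each gene from 0, 1 point per library (shapes for replicates 1 to 3) with the mean and SD of each group (n = 3), grey for the WT Tconv group and red for the KO Tconv group. Groups are apart in Ikzf4 and Runx3 alone, and in Foxp3 the squares and triangles of the KO Tconv group span 154 to 252 CPM.

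Thy1, a T cell surface protein whose counts can pool the endogenous gene with reads of the Thy1.1 reporter, was measured at 285, 277 and 254 CPM with WT Tconv and 319, 292 and 371 CPM with KO Tconv. All 3 libraries with KO Tconv were above all 3 with WT Tconv. Thy1 had a log2 fold change of 0.27 (SE 0.0975, unadjusted p 0.0241, adjusted 0.275 by edgeR). It was 0.171 without replicate 3 with KO Tconv, and the unadjusted edgeR p was then 0.0819. That p was 0.0764 without replicate 3 with WT Tconv, 0.0529 with the replicate number as a block and 0.0651 with the GC offset. In the other direction, DESeq2 without replicate 2 with KO Tconv, a fit chosen after seeing the data that called 1413 genes in all, gave Thy1 a log2 fold change of 0.34 and an adjusted p-value of 0.00598. Cbx5, which was deleted in the Tconv and intact in the Treg, was detected in all 6 libraries with a log2 fold change of -0.17 (edgeR adjusted p-value 0.534), which ran from -0.266 without replicate 2 to -0.089 without replicate 3 of the WT Tconv group and was -0.097 without replicate 2 of the KO Tconv group and -0.079 with the GC offset.

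Foxp1, the forkhead partner (ENSMUSG00000030067, chr6:98902299-99499685, minus strand), was measured at 86.7, 92.1 and 88.9 CPM with WT Tconv and at 87.2, 63.7 and 89.3 CPM with KO Tconv. Replicate 2 with KO Tconv was low, and the other 5 libraries were alike. The log2 fold change was -0.16 (SE 0.125, 95% interval -0.445 to 0.133, edgeR adjusted p-value 0.603), which moved to -0.015 without that replicate and to -0.24 without replicate 3 of the same group. With the GC offset it was -0.076.

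In the Ikaros family, Ikaros (ENSMUSG00000018654, chr11:11634980-11723186, plus strand) was measured at 272, 282 and 281 CPM with WT Tconv and at 266, 257 and 298 CPM with KO Tconv. The groups overlapped, with the lowest and the highest library both among those with KO Tconv. Ikzf1 had a log2 fold change of -0.026 (SE 0.0739, 95% interval -0.195 to 0.144, edgeR adjusted p-value 0.898).

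Helios, a marker of stable and largely thymus-derived Treg (ENSMUSG00000025997, chr1:69570373-69727004, minus strand), was measured at 1934, 1896 and 1636 CPM with WT Tconv and at 1612, 1822 and 1469 CPM with KO Tconv. Values overlapped, since replicate 3 with WT Tconv was low within its group and replicate 2 with KO Tconv was high. Ikzf2 had a log2 fold change of -0.16 (SE 0.105, 95% interval -0.398 to 0.084, edgeR adjusted p-value 0.535). Without that replicate 2 it was -0.24 (unadjusted p 0.0296, adjusted 0.255 by edgeR), without replicate 3 of the same group -0.085, and without replicate 1 with WT Tconv -0.099. The GC offset brought it to -0.046. Over all alternatives its adjusted p ran from 0.0743 to 0.921.

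Aiolos (ENSMUSG00000018168, chr11:98355728-98436857, minus strand) was measured at 154, 174 and 146 CPM with WT Tconv and at 175, 134 and 178 CPM with KO Tconv. Neither group was above the other, and replicate 2 with KO Tconv was again the lowest library. Ikzf3 had a log2 fold change of 0.041 (SE 0.119, 95% interval -0.236 to 0.317, edgeR adjusted p-value 0.900). Without that replicate it was 0.16, and without replicate 3 of the same group -0.029. With the GC offset it was 0.095.

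Eos, a corepressor partner of Foxp3 (ENSMUSG00000002578, chr10:128466712-128505227, minus strand), was measured at 94.2, 92.9 and 92.4 CPM with WT Tconv and at 87.2, 77.5 and 78.3 CPM with KO Tconv. Every library with KO Tconv was below every library with WT Tconv, and the means were 93.1 ± 0.933 and 81.0 ± 5.36 CPM (SD, n = 3). Ikzf4 had a log2 fold change of -0.20 (SE 0.0687, 95% interval -0.360 to -0.044), a level 0.869 times that with WT Tconv. The unadjusted p was 0.0182 and the adjusted p-values were 0.255 in edgeR and 0.182 in DESeq2, so the difference did not pass the test over all genes. The adjusted p ranged from 0.111 to 0.586 over the alternatives, and the direction was lower in all of them. Its log2 fold change without replicate 2 with KO Tconv was -0.17. The unadjusted edgeR p passed 0.05 when replicate 1 (0.0716) or 2 (0.059) with WT Tconv or replicate 3 with KO Tconv (0.059) was left out. With the GC offset it was -0.195 with an unadjusted p of 0.0577 by edgeR. Ratios within the family showed no separation of the groups: the ratio of Ikzf2 to Ikzf4 counts was 20.5, 20.4 and 17.7 with WT Tconv and 18.5, 23.5 and 18.8 with KO Tconv (two-sided exact permutation p 0.8, adjusted 0.9). The ratio of Ikzf1 to Ikzf3 counts was 1.76, 1.62 and 1.93 with WT Tconv and 1.52, 1.91 and 1.67 with KO Tconv (two-sided exact permutation p 0.7, adjusted 0.9).

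Of the Runx factors, Runx1 (ENSMUSG00000022952, chr16:92398354-92623037, minus strand) was measured at 107, 122 and 116 CPM with WT Tconv and at 108, 96.5 and 111 CPM with KO Tconv. The groups overlapped through replicate 1 with WT Tconv. The log2 fold change was -0.13 (SE 0.0806, 95% interval -0.319 to 0.051, edgeR adjusted p-value 0.492), and it was -0.075 without replicate 2 with KO Tconv, -0.077 without replicate 2 with WT Tconv and -0.064 with the GC offset.

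Runx3, a regulator of cytotoxic and Th1 programs that is also expressed in Treg (ENSMUSG00000070691, chr4:134847952-134905301, plus strand), was measured at 39.0, 41.7 and 40.2 CPM with WT Tconv and at 34.8, 25.9 and 36.1 CPM with KO Tconv. All 3 libraries with KO Tconv were below the WT Tconv libraries, with replicate 2 far below the other two. The log2 fold change was -0.32 (SE 0.123, 95% interval -0.604 to -0.038), a level 0.801 times that with WT Tconv. With all 6 libraries this was the largest absolute log2 fold change among the members. Without replicate 2 with KO Tconv, Ikzf2 (-0.242) and Foxp3 (0.189) were further from 0 than Runx3 (-0.184). For Runx3 the unadjusted p was 0.0309 and the adjusted p-values were 0.295 in edgeR and 0.139 in DESeq2, so this difference did not pass the test over all genes either. The adjusted p ranged from 0.0672 to 0.557 over the alternatives, all with Runx3 lower. Its log2 fold change without replicate 2 with KO Tconv was -0.18 with an unadjusted p of 0.0239, and with the GC offset -0.33 with an unadjusted p of 0.0222, by edgeR. Leaving out any one library with WT Tconv took the unadjusted p above 0.05, to 0.0613 without replicate 1, 0.0992 without replicate 2 and 0.0554 without replicate 3.

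The ratio of Runx1 to Runx3 counts, which does not depend on the scaling of libraries, was 2.76, 2.93 and 2.90 with WT Tconv and 3.09, 3.73 and 3.08 with KO Tconv. The 3 ratios with KO Tconv were above the 3 with WT Tconv. The mean log2 ratio differed by 0.20, with a two-sided exact permutation p of 0.1, the smallest possible here, and 0.4 after adjustment over 4 ratios. Without replicate 2 with KO Tconv it differed by 0.11.

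**Figure D3:**
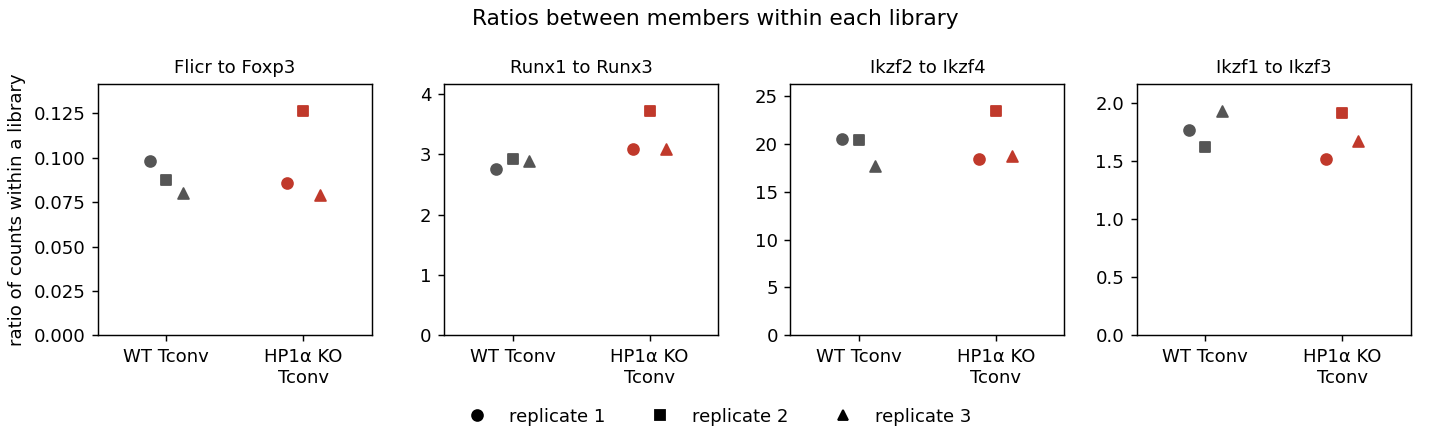
Ratio of the counts of 2 members within each library, on axes from 0, 1 point per library with shapes for replicates 1 to 3, grey with WT Tconv and red with KO Tconv. The Runx1 to Runx3 ratio is 2.76 to 2.93 with WT Tconv and 3.08 to 3.73 with KO Tconv, and the groups overlap in the other 3 ratios.

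Cbfb, the subunit that stabilises Runx proteins on DNA (ENSMUSG00000031885, chr8:105897291-105944633, plus strand), was measured at 184, 181 and 157 CPM with WT Tconv and at 159, 157 and 164 CPM with KO Tconv. The overlap came from replicate 3 with WT Tconv, which was at the level of the other group. The log2 fold change was -0.12 (SE 0.0754, 95% interval -0.297 to 0.049, edgeR adjusted p-value 0.496), moving to -0.19 without replicate 3, -0.081 without replicate 2 and -0.071 without replicate 1 of the WT Tconv group. Without that replicate 3, the library with high erythroid and neutrophil markers, Cbfb had an unadjusted p of 0.0265 (adjusted 0.403 by edgeR), and the members under 0.05 were then Ikzf4 and Cbfb, not Ikzf4 and Runx3. With the GC offset it was -0.030, and with the GC offset and replicate block -0.024.

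**Figure D4:**
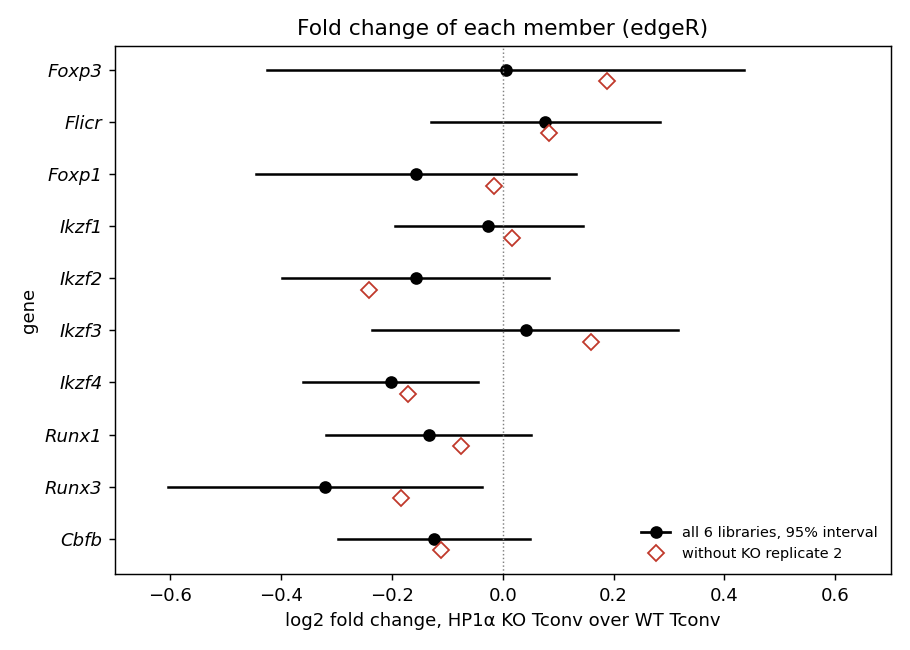
Log2 fold change of each gene, the KO Tconv over WT Tconv group, with the 95% interval of the edgeR fit to all 6 libraries (black) and the value without replicate 2 of the KO Tconv group (open red diamonds). The intervals of Ikzf4 (-0.360 to -0.044) and Runx3 (-0.604 to -0.038) lie below 0, while none of the 10 genes passed the adjusted threshold.

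A single library thus weighed on many of these values. Replicate 2 of the KO Tconv group was the lowest of the 6 libraries for 8 of the 10 members, all but Flicr and Ikzf2, whereas it was the lowest for 22.3% of all genes tested and for 25.9% of those with a mean of at least 10 CPM. Its deviations from the gene means on the log2 scale were -0.47 for Runx3, -0.44 for Foxp3 and -0.40 for Foxp1. Ikzf2 was above its mean in this library, by 0.084. The part of gene length in these deviations was not tested. Without this library 4 members had an unadjusted p under 0.05, Foxp3 higher and Ikzf2, Ikzf4 and Runx3 lower, against 16.4% of the 18799 genes then tested. None of them reached an adjusted p-value under 0.05 in edgeR, nor in DESeq2 without this library.

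**Figure D5:**
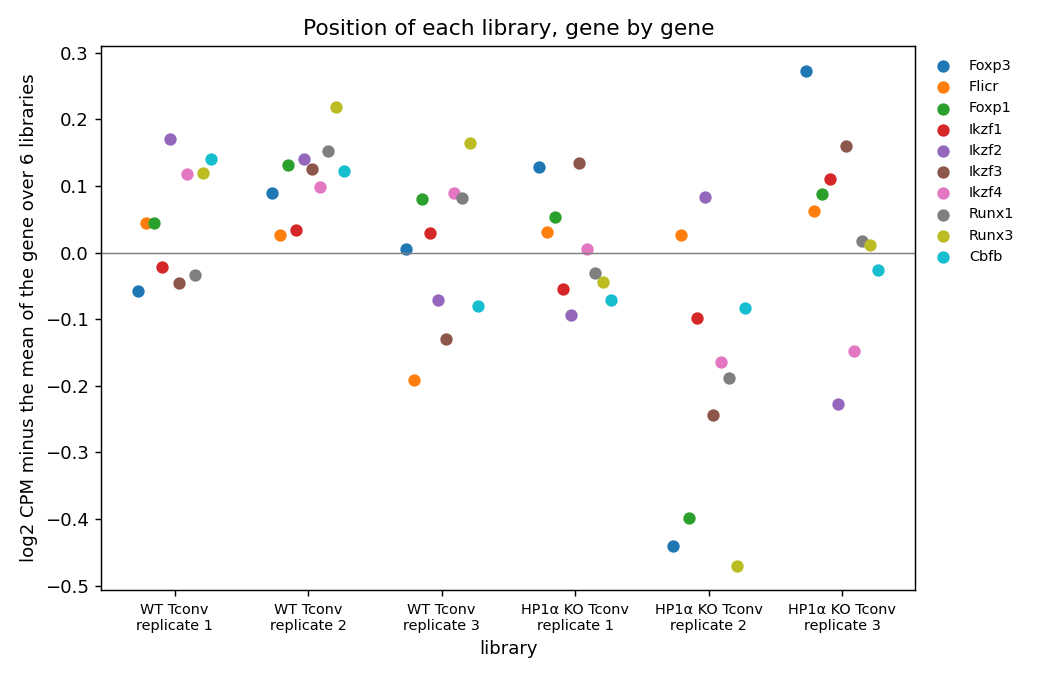
Deviation of each gene from its mean log2 CPM over the 6 libraries, by library, with 1 colour per gene. In replicate 2 of the KO Tconv group 8 of the 10 genes lie below 0 and reach -0.47 (Runx3), while Ikzf2 lies at 0.084.

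The genes whose pattern over the 6 libraries was most like that of Foxp3 were Prrc2b, Cyfip2, Mark2 and Pnpla2. Their root mean square difference from Foxp3 in centred log2 CPM was 0.0276, 0.0299, 0.0338 and 0.0387, out of 8847 genes compared, where Foxp3 itself varied by 0.222. Prrc2b, for one, was at 365, 400 and 393 CPM with WT Tconv and at 429, 278 and 452 CPM with KO Tconv, with the same low replicate 2. The genes most like Flicr were Erlin2 at 0.0124, Trim12c and Ywhaq at 0.0198 each and Lactb2 at 0.0205, where Flicr varied by 0.0865. Erlin2 was at 24.2, 23.7 and 20.6 CPM with WT Tconv and at 23.8, 23.9 and 24.0 CPM with KO Tconv, so the low library was again replicate 3 with WT Tconv. None of the 4 genes named for Foxp3 or the 4 for Flicr is itself a member.

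Other genes of the network were described by list, and of those named by the rule the ones with an unadjusted p under 0.05 are given here, a choice made after their values were seen. List medians stand against -0.008 over all genes tested, and counts at an unadjusted p under 0.05 against 14.5%. Counts called by DESeq2 stand against 4.35% of the 12097 genes it gave an adjusted p. DESeq2 without replicate 2 with KO Tconv was a fit chosen after seeing the data. That fit called 1413 genes, against 526 with all libraries, and its adjusted p-values below are to be read beside those totals. Named relatives of the members, that is Ikzf5, further forkhead factors, Runx2 and the Runx corepressors, counted 7 tested genes, of which 1 had a positive and 6 a negative log2 fold change, with a median of -0.31, or -0.195 with the GC offset. An unadjusted p under 0.05 was reached by 3 of them, all lower, and DESeq2 called 2. Runx2, the third Runx factor, was at 55.7, 63.5 and 59.3 CPM with WT Tconv and 50.4, 38.1 and 43.0 CPM with KO Tconv (log2 fold change -0.44, edgeR adjusted p-value 0.209, DESeq2 adjusted p-value 0.0148). Ikzf5 (Pegasus), the remaining Ikaros family gene, was at 59.5, 59.3 and 64.4 CPM with WT Tconv and 50.6, 49.2 and 48.1 CPM with KO Tconv (log2 fold change -0.31, edgeR adjusted p-value 0.209, DESeq2 adjusted p-value 0.0254). With the GC offset the log2 fold change of Ikzf5 was -0.195. Neither gene overlapped between the groups. Cbfa2t2, a Runx corepressor of the ETO family, had a log2 fold change of -0.20.

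Among 23 further cofactors of the Foxp3 complex, 16 had a negative and 7 a positive log2 fold change with a median of -0.146 (-0.046 without replicate 2 with KO Tconv), and 4 had an unadjusted p under 0.05. Rora, a nuclear receptor that Foxp3 is known to bind, was at 402, 380.2 and 363 CPM with WT Tconv and 289, 266 and 238 CPM with KO Tconv, a log2 fold change of -0.53 (adjusted p-values 0.209 by edgeR and 0.00013 by DESeq2). No library of one group reached the range of the other. Sirt1, a deacetylase that acts on Foxp3, had a log2 fold change of -0.28, and Usp7, a deubiquitinase that stabilises Foxp3, one of -0.20 that moved to -0.107 without replicate 3 with WT Tconv. Stub1, the ubiquitin ligase that works against Usp7 on Foxp3, had a log2 fold change of 0.20. None of these passed the edgeR threshold with the low-count filter and all 6 libraries, while without that filter Rora had an edgeR adjusted p-value of 0.0239. In DESeq2 without replicate 2 with KO Tconv the adjusted p-values of Sirt1 and Stub1 were 0.0240 and 0.0285. With the GC offset, also chosen after seeing the data, their log2 fold changes were -0.189 and 0.178. The unadjusted edgeR p was then 0.0652 for Sirt1 and 0.0985 for Stub1. Among 16 subunits of the NuRD and Sin3 type corepressors that Ikaros proteins recruit, 10 were below and 6 above 0. Their median was -0.060, which turned to 0.022 without replicate 2 with KO Tconv. An unadjusted p under 0.05 was reached by 2, Rbbp4 (-0.21) and Gatad2b (-0.31). Their DESeq2 adjusted p-values moved from 0.0885 and 0.0621 to 0.00275 and 0.00754 without that replicate. With the GC offset Rbbp4 was at -0.132 and Gatad2b at -0.236, with an unadjusted edgeR p of 0.155 and 0.0338.

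Among 20 genes that act upstream of Foxp3, 10 were below and 10 above 0 with a median of 0.004, or -0.038 to 0.036 when 1 library was left out. An unadjusted p under 0.05 was reached by 4, all lower, and DESeq2 called 2. Rel, the NF-κB subunit that helps to start Foxp3 transcription, was at 165, 159 and 160.4 CPM with WT Tconv and 112, 83.5 and 84.9 CPM with KO Tconv, the groups being well apart. Its log2 fold change was -0.79 (SE 0.115, edgeR adjusted p-value 0.209, DESeq2 adjusted p-value 7.66e-07). In edgeR the adjusted p-value of Rel was 0.0199 without the low-count filter and 0.0487 without replicate 1 with KO Tconv. Nr4a3, an orphan nuclear receptor induced by T cell receptor signals, was at 119, 116 and 143 CPM with WT Tconv and 82.7, 74.2 and 54.1 CPM with KO Tconv. Its log2 fold change was -0.84 (SE 0.168, edgeR adjusted p-value 0.209, DESeq2 adjusted p-value 3.18e-05). Its relative Nr4a2 had a log2 fold change of -0.38, or -0.226 without replicate 3 with KO Tconv, and a DESeq2 adjusted p-value of 0.0806, which was 0.0263 (log2 fold change -0.457) without replicate 2 with KO Tconv. Satb1, a chromatin organiser outside the naming rule, was the fourth, with a log2 fold change of -0.39 (edgeR adjusted p-value 0.330). It was at 151, 190 and 153 CPM with WT Tconv and 140, 98.9 and 139 CPM with KO Tconv. Its lowest library was replicate 2 with KO Tconv and its highest replicate 2 with WT Tconv. Beside these, Foxp3 had a log2 fold change of 0.005, or 0.189 without replicate 2 with KO Tconv.

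Among 16 genes that Foxp3 is known to induce, 9 were above and 7 below 0 with a median of 0.062 (0.030 without replicate 2 and 0.125 without replicate 3 with KO Tconv), and an unadjusted p under 0.05 was reached by 2 that were higher and 1 that was lower. Gpr83, a receptor enriched in Treg, was at 13.2, 13.4 and 10.7 CPM with WT Tconv and 17.5, 15.9 and 20.9 CPM with KO Tconv (log2 fold change 0.54, edgeR adjusted p-value 0.209, DESeq2 adjusted p-value 0.0120). Izumo1r, which encodes folate receptor 4, had a log2 fold change of 0.24 and a DESeq2 adjusted p-value of 0.0693, or 0.00861 without replicate 2 with KO Tconv. Ctla4, the inhibitory receptor, was at 1246, 1349 and 1112 CPM with WT Tconv and 1028, 1018 and 798 CPM with KO Tconv (log2 fold change -0.38, edgeR adjusted p-value 0.232, DESeq2 adjusted p-value 0.0414). The direction thus differed between genes of this list.

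Among 10 genes that Foxp3 is known to repress, 5 were above and 5 below 0 with a median of -0.033. Leaving out 1 library moved this median from -0.113 (without replicate 3 with KO Tconv) to 0.028 (without replicate 3 with WT Tconv), so it has no stable sign. Id3, an inhibitor of E proteins, had a log2 fold change of 0.45 (DESeq2 adjusted p-value 0.0521, or 0.0324 without replicate 2 with KO Tconv), and Pde3b, a phosphodiesterase, one of -0.44. The latter rested on replicate 2 with WT Tconv, since Pde3b was at 10.9, 17.2 and 10.9 CPM with WT Tconv and 9.01, 10.1 and 9.58 CPM with KO Tconv, and without it the log2 fold change was -0.175. Among 9 tested neighbours of Foxp3 on the X chromosome, 5 were above and 4 below 0 with a median of 0.004, or -0.067 to 0.100 when 1 library was left out. Ppp1r3f, whose exons overlap those of Flicr by 310 bases on the opposite strand, was higher by 0.19 on the log2 scale (edgeR adjusted p-value 0.340), and no other neighbour had an unadjusted p under 0.05.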

How the data were processed

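Per the study's methods, STAR alignment to GRCm39 (Ensembl annotation) and Salmon followed read trimming. The deposited table gives estimated counts as whole numbers, which the authors did not normalize. No column of per-sample values was left unused (0).

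All genes were fitted with edgeR version 4.0.16 in R version 4.3.3 (TMM scaling, filterByExpr, glmQLFit with robust = TRUE, glmQLFTest, group as the only term), with Benjamini-Hochberg adjustment over the 18321 genes kept. The fit was also run on simulated counts that held none of the GC or length trends described above. That run does not bear on those trends, and its outcome is not given here. CPM values use TMM-scaled totals, while marker sums use plain totals. Lengths and positions came from a GENCODE annotation of GRCm39, which matched 28854 rows. Ratios were compared by two-sided exact permutation tests. Members and lists were chosen with earlier results of these data known. Besides all members, Cbx5 and Thy1, the rule named up to 3 genes per direction and list by unadjusted p, and the 4 genes most like Foxp3 and Flicr. Alternatives comprised DESeq2 version 1.42.0, limma-voom (limma version 3.58.1), other scalings and filters, a replicate block, leaving out each library, and GC offsets. Each library held 87421755 counts or more, and the member with the fewest counts, Flicr, had at least 1761 counts in each. Coding windows of some members are not reported here.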

Additional observations from a re-analysis of the deposited data

How the results depend on the processing

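No member reached an adjusted p-value under 0.05 in any of the 18 alternatives. Foxp1, Ikzf2, Ikzf4, Runx1, Runx3 and Cbfb stayed below 0 and Flicr above 0 in all of them. The size of most of these moved with the GC offset, which took Foxp1 from -0.156 to -0.076, Ikzf2 from -0.157 to -0.046, Runx1 from -0.134 to -0.064, Cbfb from -0.124 to -0.030 and Flicr from 0.077 to 0.134, while Ikzf4 (-0.195) and Runx3 (-0.333) moved little. The near-zero log2 fold changes of Foxp3, Ikzf1 and the sum of Foxp3 and Flicr changed sign. Foxp3 was at -0.026 with limma-voom, -0.024 with the replicate block, -0.005 with the GC offset and -0.028 with the GC offset and replicate block. Ikzf1 was at 0.012 with library totals only, with the GC offset and with DESeq2 without replicate 2 of the KO Tconv group, and at 0.010 with the GC offset and replicate block. The sum was at -0.015 with limma-voom and -0.013 with the replicate block. The cause was not tested. The GC offsets and that DESeq2 fit were chosen after seeing the data.

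Leaving out 1 library at a time gave log2 fold changes of -0.14 to 0.189 for Foxp3, -0.09 to 0.017 for Ikzf1, -0.029 to 0.16 for Ikzf3 and -0.122 to 0.181 for the sum, the highest value in each case without replicate 2 of the KO Tconv group and the lowest without replicate 3 of that group. Log2 differences of ratios ran from -0.101 to 0.237 for Flicr to Foxp3, -0.149 to 0.017 for Ikzf1 to Ikzf3 and -0.067 to 0.107 for Ikzf2 to Ikzf4.

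Members with an unadjusted p under 0.05 numbered 0 to 4 when 1 library was left out (0 without replicate 1 or 2 of the WT Tconv group, 4 without replicate 2 and 1 without replicate 3 of the KO Tconv group), 1 with the GC offset, with or without the replicate block, and 4 with DESeq2 without replicate 2 of the KO Tconv group. The share of all genes at this level was 14.5% in the main fit and 16.4% in edgeR without that replicate. Shares for the other fits are not given here, so these shifts are not read as results about the members. Genes called at an adjusted p under 0.05 numbered 0 with edgeR, 526 with DESeq2, 1413 with DESeq2 without that replicate, 38 without a filter, 1 each with upper quartile scaling, the replicate block and the GC offset, 3 with the GC offset and replicate block, and 0 to 2 when 1 library was left out. With an absolute log2 fold change over 1 as well, the counts were 16, 38, 4, 1, 1, 1, 3 and 0 to 1 in the same order of alternatives, against 0 with edgeR.

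Replicate numbers were not used as pairs. Same-numbered libraries deviated together with correlations of -0.042, 0.182 and 0.117, and differently numbered ones with -0.218 to 0.121. The highest of all was the 0.182 of replicate 2, and these values do not settle whether replicates were paired. With the replicate block 2 members had an unadjusted p under 0.05, as without it. Per kilobase of the longest transcript, levels were 180.6 CPM for Ikzf2, 56.0 for Cbfb, 54.9 for Foxp3, 45.9 for Ikzf1, 34.8 for Ikzf3, 16.6 for Ikzf4, 15.9 for Runx1, 10.4 for Foxp1 and 9.32 for Runx3.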
